A study of Mus musculus with 3 samples.

Results

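The immediate early genes of the AP-1 group were followed across the single-cell transcriptomes of adult mouse heart endothelium cultured with embryonic stroma. The 10 genes, chosen by name, were *Fos*, *Fosb*, *Fosl1*, *Fosl2*, *Jun*, *Junb*, *Jund*, *Atf3*, *Egr1* and *Ier2*. All 10 were found among the 27994 genes of the count table. The endothelial cells came from hearts of 12–16-week-old female mice whose cells carried GFP. The hearts were minced and digested with collagenase at 37 °C, and GFP+ cells with CD31 and VE-Cad and without CD41, CD45, PDGFRA or PDGFRB were sorted. They were taken fresh (0 h) or sorted again, as GFP+ cells with CD31 and VE-Cad and without PDGFRA, after 24, 48, 72 or 96 h in co-aggregates. Their partners were PDGFRA+ stromal cells (*Mesp1*-derived PSCs) of the aorta–gonad–mesonephros region of E11.5 embryos, marked by DsRed through a *Mesp1*-driven Cre and the Z/Red reporter, which labels all descendants of cells that once expressed *Mesp1*. The co-aggregate medium held 20% fetal calf serum with IL-3 (by the study's methods), SCF and Flt3L at 100 ng/ml each. Each pool mixed fresh and cultured cells, and pools A, B and C form the single group of the series. The number of animals behind each pool was not given in the sources used here.

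AP-1 is a dimer of a Jun protein with a Fos protein, another Jun protein or an ATF protein, which binds short palindromic sites in DNA. *Fos*, *Fosb*, *Jun*, *Junb*, *Atf3*, *Egr1* and *Ier2* are switched on within minutes by growth factors, cytokines, serum and stress without new protein synthesis, and their transcripts decay quickly, whereas *Jund* is expressed in most resting cells. Enzymatic digestion of solid tissue is a known trigger of these genes, and ERK signalling acts through the same promoters, so that their level alone does not name its trigger.

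The promoters of 4 of the genes are shown because *Fos* and *Fosb* were the pair most strongly correlated from cell to cell in cluster 1, and because *Jun* and *Junb* stood far above the other clusters there. The windows run from 250 bases before to 50 bases after the start site on the gene's own strand and are from RefSeq (GRCm38.p6). *Fos* lies at chr12:85473640-85473939 on the plus strand, *Fosb* at chr7:19309996-19310295 on the minus strand, *Jun* at chr4:95052173-95052472 on the minus strand and *Junb* at chr8:84978699-84978998 on the minus strand. Capitals mark matches to the motifs named in the next paragraph.
Fos: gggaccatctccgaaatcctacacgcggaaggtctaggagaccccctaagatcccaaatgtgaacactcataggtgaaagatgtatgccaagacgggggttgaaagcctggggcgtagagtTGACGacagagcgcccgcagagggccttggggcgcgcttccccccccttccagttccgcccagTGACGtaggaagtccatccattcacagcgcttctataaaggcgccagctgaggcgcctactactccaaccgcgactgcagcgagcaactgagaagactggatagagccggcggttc
Fosb: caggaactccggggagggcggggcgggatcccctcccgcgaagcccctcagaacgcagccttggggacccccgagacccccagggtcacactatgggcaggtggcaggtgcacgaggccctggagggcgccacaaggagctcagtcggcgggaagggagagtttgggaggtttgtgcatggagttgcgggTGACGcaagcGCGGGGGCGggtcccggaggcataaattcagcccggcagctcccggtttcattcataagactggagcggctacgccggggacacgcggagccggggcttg
Jun: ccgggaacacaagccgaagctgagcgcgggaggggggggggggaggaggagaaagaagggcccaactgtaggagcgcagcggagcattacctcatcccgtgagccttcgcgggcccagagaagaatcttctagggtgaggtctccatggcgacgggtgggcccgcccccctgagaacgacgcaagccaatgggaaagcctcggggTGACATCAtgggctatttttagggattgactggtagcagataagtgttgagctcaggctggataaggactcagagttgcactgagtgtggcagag
Junb: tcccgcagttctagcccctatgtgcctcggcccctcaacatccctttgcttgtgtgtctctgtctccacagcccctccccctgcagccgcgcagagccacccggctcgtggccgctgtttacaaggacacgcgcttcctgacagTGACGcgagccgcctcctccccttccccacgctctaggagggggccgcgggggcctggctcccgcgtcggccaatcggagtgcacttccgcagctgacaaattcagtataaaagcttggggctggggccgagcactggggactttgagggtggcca

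Windows were found for 7 of the 10 genes (the above, *Fosl2*, *Jund* and *Atf3*). Both strands were searched for the AP-1 site TGACTCA, the CRE TGACGTCA, the variant TGACATCA, the short core TGACG (which the full CRE contains), the EGR site GCGNGGGCG and the CArG box, at which serum response factor binds. The short core was in 4 of the 7 windows, those of *Fos*, *Fosb*, *Junb* and *Atf3*, and in 20.8% of the 32851 windows of all genes. Counted from 0 at the start site, it lay at -66 to -62 in *Fos* and at -60 to -56 in *Fosb*, and *Fos* held another at -129 to -125. The variant TGACATCA was in the window of *Jun* alone, at -45 to -38, and in 3.62% of all windows. The EGR site was in the windows of *Fosb* and *Fosl2* and in 5.55% of all windows. None of the 7 held the AP-1 site TGACTCA (5.20% of all windows), the full CRE (1.79%) or the CArG box (1.63%). Only the named sequences were searched, and only within the windows, so that sites further away or of other letters would be missed. *Fosl1*, *Egr1* and *Ier2* had no window. The GC content was 46.7% for *Jund* and 58.7% to 68.3% for the other 6, beside a median of 52.7% over all windows.

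The count table held 9562 cells with 252339042 UMIs. A UMI is 1 counted transcript molecule, read from its 3′ end and not divided by gene length. Each cell carried 1 of 7 cluster numbers (0 to 6) given by the authors and 1 of 3 library suffixes, called libraries 1 to 3 here. The suffixes could be tied to none of the pools, and no cell could be tied to a time point, so that fresh and cultured cells, and with them recent digestion of the heart and the conditions of the culture, cannot be told apart. The cultured cells had also been separated out of co-aggregates and sorted before capture. The 3 libraries were read side by side as a range, and no test was run, since the libraries are tied to no sample and these counts also defined the clusters. The libraries differed in depth, with medians of 23651, 13440.5 and 38312 UMIs per cell. Clusters held 239 to 5396 cells. Cluster 1, with 799 cells, was the shallowest, with a median of 7875 UMIs per cell against 14061 to 36065.5 in the other clusters. A total of 13 barcodes occurred under more than 1 suffix. Levels are UMIs of a gene per 10,000 UMIs of the cells, with exact 95% Poisson intervals that cover counting error only. Amounts per cell and per UMI can part where cells differ in total RNA.

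The clusters are described by marker genes only. Higher and lower follow the rule for calls given below, with the shares of all genes called. Of the heart capillary genes (*Fabp4*, *Gpihbp1*, *Cd36* and others), 7 of 8 were higher in cluster 1, with a summed level of 85.6 against 1.31 to 3.51 in the other clusters, and 3 of 6 pan-endothelial genes were higher there too. Cluster 0 had all 6 arterial genes higher, of which 3 were also higher in cluster 1. Cluster 2, the largest, had 3 of 6 pan-endothelial genes higher. Cluster 3 had all 5 germ cell and pluripotency genes higher, cluster 4 all 7 fibroblast genes, cluster 5 all 7 macrophage genes and the 5 of 6 granule genes tested, and cluster 6 all 6 megakaryocyte genes. In cluster 4 the 3 of 5 cardiomyocyte genes tested were higher too, with a summed level of 3.68. In clusters 3, 4, 5 and 6 all 6 pan-endothelial genes were lower, although the cells had been sorted for endothelial surface antigens.

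The 10 genes together were highest in cluster 1, at 43.7 UMIs per 10,000 (interval 43.3 to 44.2), 2.34-fold above the next cluster and 6.71-fold above the lowest. In libraries 1, 2 and 3 the summed level in cluster 1 was 39.2, 40.3 and 52.8, so that library 3 stood 34.9% above the lowest. Cluster 5 followed at 16.8 to 19.4 over the libraries, cluster 4 at 16.03 to 17.1, cluster 6 at 11.2 to 14.2, cluster 0 at 10.4 to 11.1, cluster 2 at 8.30 to 8.45 and cluster 3 at 5.75 to 7.38. Clusters 5 and 4 overlapped over the libraries, and no other neighbours in this order did. The 3 clusters with endothelial markers thus held the highest value and 2 of the 3 lowest values.

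Among the *Fos* family, *Fos*, the dimer partner that turns over fastest, was as high in cluster 5 as in cluster 1. Its level was 4.97, 5.32 and 6.48 in libraries 1, 2 and 3 of cluster 1 and 5.72, 4.79 and 5.85 in those of cluster 5. These ranges overlapped, and both lay above every library of the other clusters, of which cluster 4 came next at 1.62 to 2.14. *Fos* was lowest in clusters 2 and 3, at 0.403 (interval 0.392 to 0.414) and 0.311 (0.272 to 0.355), 17.8-fold from the highest to the lowest cluster. *Fosb*, its close relative, showed the same leading pair, with 0.907, 1.35 and 1.60 in the libraries of cluster 1 and 1.11, 1.12 and 1.16 in those of cluster 5. The level of *Fosb* in cluster 1 was spread more widely over the libraries than that in cluster 5, and the ranges overlapped. Library 1 of cluster 1 lay below the highest library of cluster 4 (1.01) and of cluster 6 (0.939).

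*Fosl1* and *Fosl2*, which encode the later and longer-lived Fos-related proteins FRA1 and FRA2, did not share the level in cluster 5. *Fosl1* stood at 0.817, 0.469 and 0.702 in the libraries of cluster 1, from 592 UMIs, and at 0.00464 to 0.0110 in the other 6 clusters, which held 4 to 73 UMIs each. It was 119-fold higher in cluster 1 than in all other cells. *Fosl2* stood at 0.614, 0.759 and 0.702 in cluster 1, 12.2-fold above all other cells, and came next in cluster 0 at 0.107 to 0.170. In cluster 5 *Fosl2* was at 0.0568 to 0.0643. For both genes every library of cluster 1 lay above every library of the other clusters.

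Among the *Jun* family, *Junb*, which can restrain as well as form AP-1, set cluster 1 apart the most. Its level was 8.18, 7.36 and 9.76 in the libraries of cluster 1 and at most 1.27 in any library of another cluster, and it was 9.35-fold higher in cluster 1 than in all other cells. *Jun* stood at 8.02, 9.25 and 13.3 in cluster 1, with library 3 the highest, and at 3.50 to 4.32 in cluster 5, which overlapped with clusters 4 and 6. *Jun* was lowest in cluster 3, at 0.507 to 0.911. *Jund* varied less, 3.89-fold from the highest to the lowest cluster. It stood at 7.87, 7.79 and 9.88 in cluster 1, at 5.54 to 5.71 in cluster 4 and at 2.10 to 2.29 in cluster 2, the lowest. Cluster 3 had the lowest level of 7 of the 10 genes, but *Jund* stood there at 3.48 to 3.58, at rank 3 of the 7 clusters and overlapping with cluster 0.

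Of the remaining genes, *Egr1*, a zinc finger factor that is itself a target of ERK signalling, stood at 2.51, 3.09 and 3.96 in the libraries of cluster 1. It stood at 1.13, 0.946 and 0.764 in clusters 6, 5 and 4 and at 0.136, 0.129 and 0.0939 in clusters 0, 2 and 3. The libraries of clusters 6 and 5 overlapped, as did those of clusters 0, 2 and 3. *Atf3*, a stress-induced member of the ATF family, stood at 1.78, 1.84 and 2.50 in cluster 1, followed by cluster 5 at 0.459 to 0.634 and by cluster 2 at 0.428 to 0.452. Of the 10 genes, *Atf3* alone placed cluster 2 as high as rank 3. *Ier2*, a small nuclear protein gene of the immediate early class, varied the least, 2.71-fold between clusters. It stood at 3.51, 3.04 and 3.95 in cluster 1 and at 1.17 to 2.48 in every library of the other clusters, and in the order 0, 5, 2 and 4 each cluster overlapped with its neighbour.

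Among the genes with a level of at least 0.1 in a cluster, those that differed between its libraries by 2-fold or more were *Fos*, *Fosb* and *Junb* in cluster 3, with the highest value in library 2 for each, and *Fos* in cluster 6, at 1.24, 0.999 and 1.997 in libraries 1, 2 and 3. Among genes under that minimum, *Atf3* in cluster 6 stood at 0.0306, 0.142 and 0.137, and in cluster 3 at 0.0814, 0.106 and 0.0160. Of all genes at or above it, 5.96% in cluster 3 and 2.65% in cluster 6 differed as much. In cluster 1, 0 of the 10 genes and 5.23% of all genes did.

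**Figure D1:**
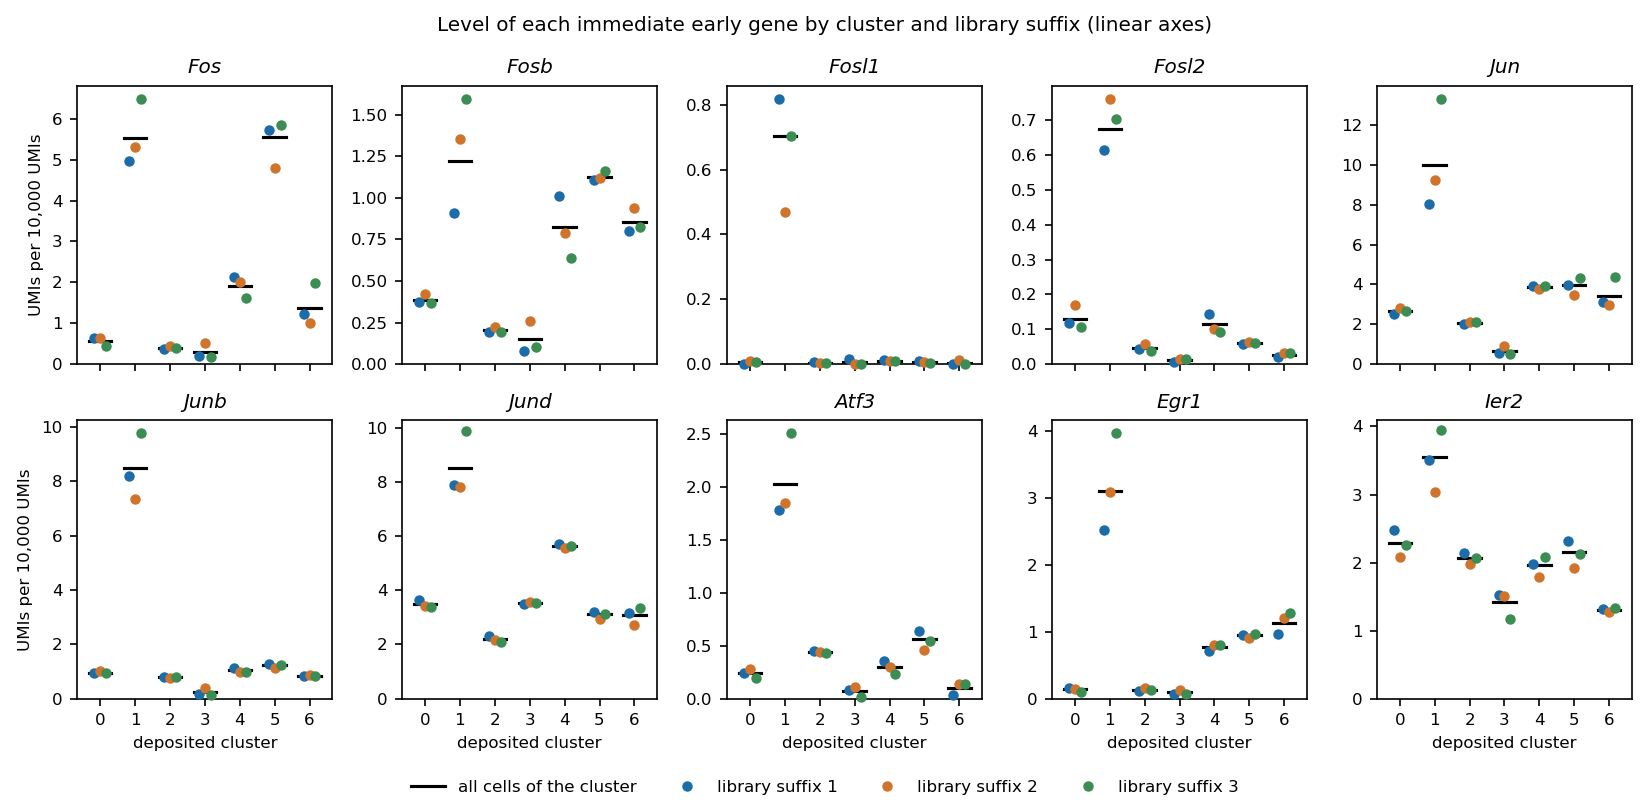
Level of each of the 10 genes (UMIs per 10,000 UMIs, linear axes with their own scale per gene) in the 7 clusters. Points are the 3 library suffixes and black lines all cells of the cluster. *Fosl1* is near 0 outside cluster 1, and *Fos* is as high in cluster 5 as in cluster 1, where its libraries run from 4.97 to 6.48.

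Each cluster was then set against all other cells, and a gene was called higher or lower where the levels were at least 2-fold apart with the same sign in the 3 libraries. The clusters had been made by the authors from the same counts, so that these calls are descriptions. In cluster 1, 9 of the 10 genes were called higher and 0 lower, where 18.6% and 11.4% of all 9337 genes tested were called higher and lower. The exception was *Ier2*, at 3.55 in cluster 1 and 2.04 in the other cells, a log2 ratio of 0.80 (interval 0.75 to 0.85). The median log2 ratio of the 10 genes was 2.06 in cluster 1, beside 0.08 over all genes tested. The log2 ratios of the 9 genes called ran from 1.28 for *Fosb* to 6.90 for *Fosl1*, with *Egr1* at 2.93 (interval 2.86 to 2.99) and *Atf3* at 2.25 (2.17 to 2.32).

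In cluster 5 the calls were *Fos* with a log2 ratio of 2.82 (interval 2.79 to 2.85), *Fosb* with 1.75 (1.70 to 1.803) and *Egr1* with 1.42 (1.37 to 1.47), 3 of 8 genes tested higher and 0 lower, where 8.2% and 16.7% of all genes were called. In cluster 4, of 9 genes tested, *Jund* was called higher at a log2 ratio of 1.02 (0.98 to 1.05), and 0 were lower, where 13% and 7.85% of all genes were called. Without library 2 *Jund* fell short of the rule, which left 0 calls in cluster 4. In cluster 6, of 8 tested, *Egr1* was called higher at 1.26 (1.18 to 1.35) and *Atf3* lower at -2.36 (-2.65 to -2.08), where 7.99% and 17.6% of all genes were called. The rise of *Egr1* was therefore shared by clusters 1, 5 and 6, and that of *Fos* and *Fosb* by clusters 1 and 5.

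The other 3 clusters held lower calls alone. In cluster 2, 5 of 9 genes tested were called lower (*Fos* at -3.26, *Egr1* at -2.90, *Fosb* at -2.18, *Fosl2* at -1.30 and *Junb* at -1.02) and 0 higher, where 11.1% and 6.1% of all genes were called. In cluster 3, 6 of 8 genes were called lower, from *Fosb* at -1.84 to *Atf3* at -2.75, and 0 higher, where 24.2% and 10.3% of all genes were called. In cluster 0, 3 of 9 genes were called lower (*Egr1* at -1.93, *Fos* at -1.82 and *Atf3* at -1.05) and 0 higher, where 6.05% and 8.97% of all genes were called. The call of *Atf3* was lost without library 3, at -0.92. The medians over the 10 genes were -1.16 in cluster 2, -2.28 in cluster 3 and -0.38 in cluster 0, beside -0.03, -0.14 and 0.07 over all genes tested. The other cells include clusters 1 and 5 in each of these 3 comparisons, and their high levels enter the ratios.

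**Figure D2:**
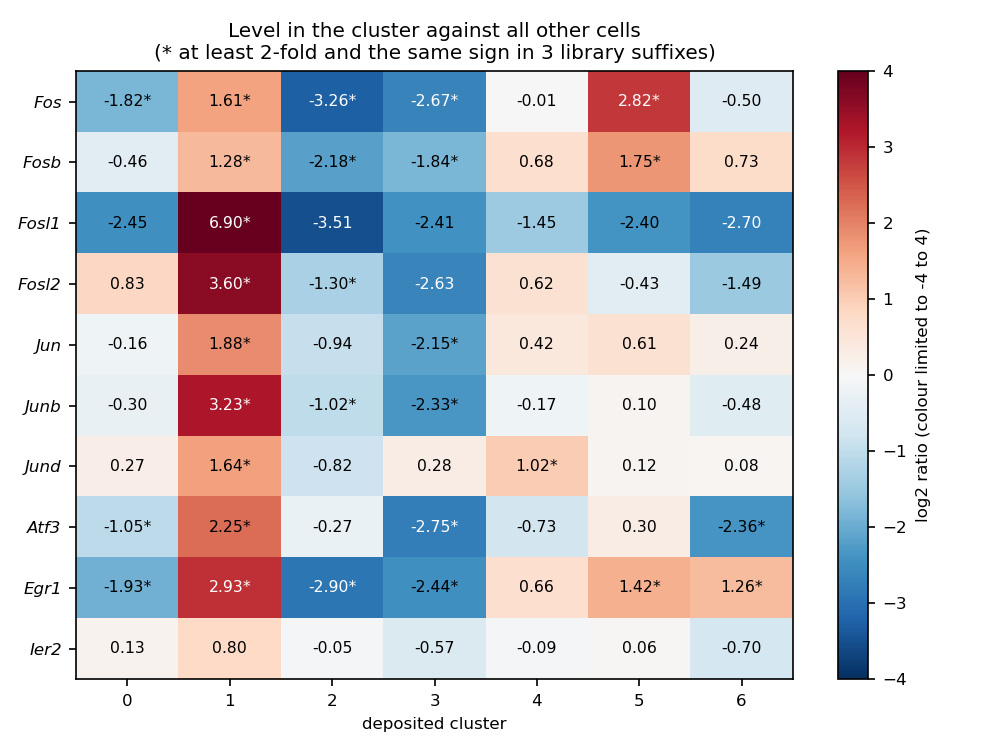
Log2 ratio of the level in each cluster to that in all other cells, for the 10 genes (rows) and 7 clusters (columns), with the value in each field and an asterisk where the rule for a call was met. The column of cluster 1 is positive throughout, up to 6.90 for *Fosl1*, and those of clusters 2 and 3 are negative for nearly all genes.

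The make-up of the family differed between clusters as well. Among *Fos* family UMIs, *Fos* made up 82.3% in cluster 5 (80.1 to 83.0% over the libraries), 68.0% in cluster 1 (67.3 to 68.4%) and 52.0% in cluster 0 (47.9 to 56.1%). *Fosb* made up 15.1% in cluster 1 and 16.7% in cluster 5 but 28.7 to 37.6% in the other 5 clusters. *Fosl1* and *Fosl2* made up 8.7% and 8.3% in cluster 1, whereas in cluster 5 they made up 0.1% and 0.9%. The *Fos* family in cluster 1 thus differed in its members from that in cluster 5, where the level of *Fos* was alike.

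Among *Jun* family UMIs, *Junb* made up 31.5% in cluster 1 (29.6 to 34.0% over the libraries) and 5.3 to 15.7% in the other clusters, whose libraries reached at most 16.1%. *Jund* made up 79.4% in cluster 3 (73.6 to 84.7%) and 31.5% in cluster 1. *Jun* made up 47.9% in cluster 5, 36.8 to 46.8% in clusters 0, 1, 2, 4 and 6, and 15.2% in cluster 3.

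**Figure D3:**
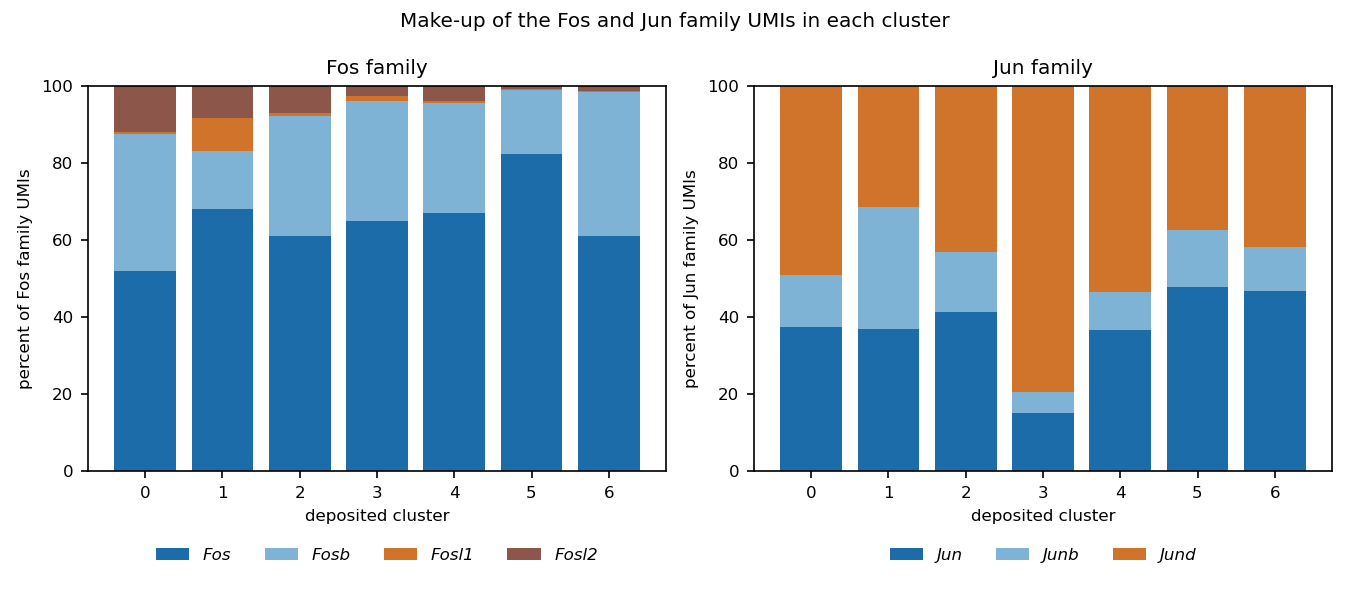
Percentage of the UMIs of the *Fos* family (left) and of the *Jun* family (right) that each gene held in each cluster, as stacked bars from 0 to 100. *Fosl1* is visible in cluster 1 (8.7%), *Junb* is widest in cluster 1 (31.5%), and *Jund* fills most of the *Jun* family in cluster 3 (79.4%).

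Because depth differed between clusters, 5,000 UMIs were drawn from each cell, which left 9472 cells. At this depth *Jund* was detected in 94.1% of the cells of cluster 1 (exact 95% interval 92.2 to 95.7%), *Jun* in 85.2% (82.5 to 87.7%) and *Junb* in 79.3% (76.2 to 82.2%). In cluster 2 these shares were 61.6%, 56.0% and 29.6% in the same order. *Fos* was detected in more cells of cluster 5 (64.0%, 61.6 to 66.4%) than of cluster 1 (51.0%, 47.4 to 54.7%), and the libraries of these clusters did not overlap (62.0 to 66.2% against 48.4 to 54.7%). At a like level, *Fos* was thus seen in fewer cells of cluster 1. The lowest share with *Fos* was 15.3%, in cluster 2. *Fosl1* was detected in 20.0% of the cells of cluster 1 (17.2 to 23.1%) and in at most 0.977% of those of any other cluster. Without thinning, *Fosl1* was seen in 27.3% of the cells of cluster 1 and 0.418 to 2.51% of those of the other clusters, and *Fos* in 57.1% of cluster 1 and 80.9% of cluster 5.

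Within cluster 1 nearly all cells held at least 1 UMI of the 10 genes, with a long tail of high cells. The median cell held 5 of the 10 genes. At 5,000 UMIs per cell the 10 genes together gave 5 UMIs at the 10th percentile, 15 at the median and 50.6 at the 90th percentile, with a maximum of 297. Of the cells of cluster 1, 0.537% had none, against 2.08 to 7.11% in the other clusters. The top 10% of cells held 39.98% of the UMIs of the 10 genes, against 25.0 to 35.9% in the other clusters. The 35.9% was that of cluster 4. The variance over the mean was 43.2 in cluster 1, 14.0 in cluster 4, 7.67 in cluster 5 and 2.04 to 3.36 in the other 4 clusters. The means were 24.7, 8.74 and 9.74 UMIs in clusters 1, 4 and 5 and 3.55 to 5.91 in the others. At a like relative spread this ratio is larger where the mean is higher. Cells with at least 5 of the 10 genes made up 64.3% of cluster 1 and 39.2% of cluster 5, and 3.77 to 23.2% of the others. Of the 75 cells in the top 10% of cluster 1, 30 were of library 3, which held 30.5% of the cells of the cluster, 26 were of library 1 and 19 of library 2.

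**Figure D4:**
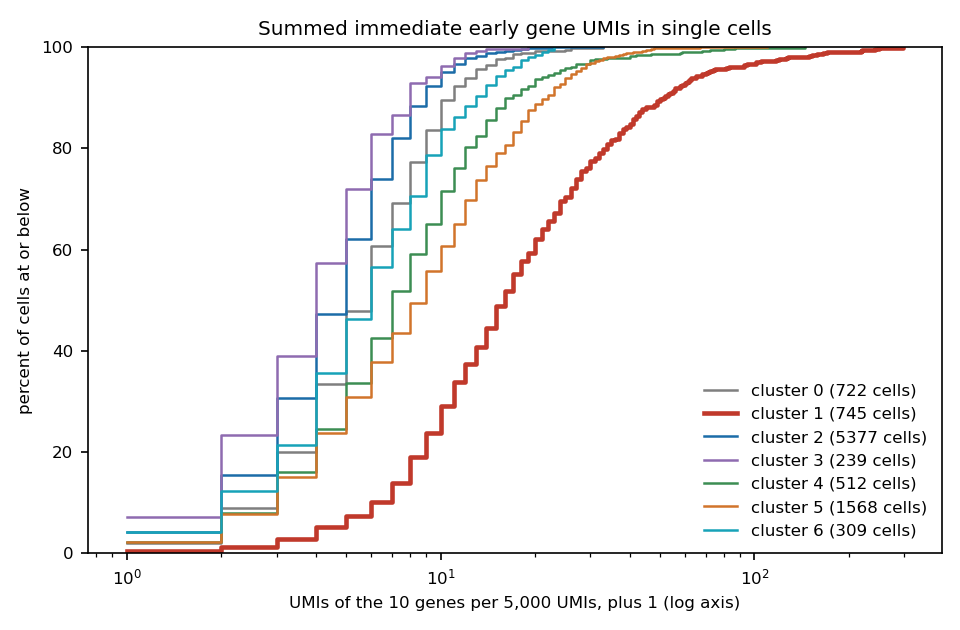
Cumulative percentage of cells (vertical axis) by the UMIs of the 10 genes among 5,000 UMIs drawn from each cell, plus 1 (horizontal log axis), with 1 line per cluster. The line of cluster 1 lies to the right of the others over most of its range, with a median of 15 UMIs and a tail to 297, while the medians of the other clusters are 3 to 8.

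The level in cluster 1 moved with depth. When the cells of each library were cut by their UMIs into 4 groups of equal size, the summed level was 62.4 in the shallowest group and 34.0 in the deepest. By library, the shallowest group stood at 56.3, 76.1 and 61.1 and the deepest at 29.4, 29.5 and 43.7, so that the deepest was lower in each. In cluster 2 the depth groups of all libraries stood between 7.85 and 9.14. The deepest groups of cluster 1 were still above every library of the other clusters, of which the highest was 19.4. The part that depth or RNA content had in the difference within cluster 1 was not tested.

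The genes were correlated from cell to cell, most in clusters 1, 4 and 5. Across 745 cells of cluster 1 at 5,000 UMIs, the median Spearman's rho over the 45 pairs was 0.24. It was 0.21 over 36 pairs in cluster 4, 0.21 over 28 pairs in cluster 5 and 0.06 to 0.14 in the other clusters. These medians cover unlike sets of pairs, since both genes had to be found in at least 5% of the cells. The pairs of *Fosl1* and *Fosl2* entered in cluster 1 but not in cluster 5, so that these medians are not directly comparable. Counts per 10,000 UMIs at the full depth of the cells were then used, over the same sets of pairs. The median was 0.25 in cluster 1 and 0.42 in cluster 5, the reverse order. The cells share libraries and the fixed total of UMIs, and rho is given as a description. The strongest pairs in cluster 1 were *Fos* with *Fosb* (0.57), *Junb* with *Egr1* (0.50) and *Jun* with *Jund* (0.46), and in cluster 5 *Fos* with *Egr1* (0.47) and *Fos* with *Fosb* (0.43). *Fosl1* and *Fosl2* stayed near 0 with *Fos* and *Fosb* in cluster 1 (-0.03 to -0.01), although all 4 genes were called higher in that cluster.

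**Figure D5:**
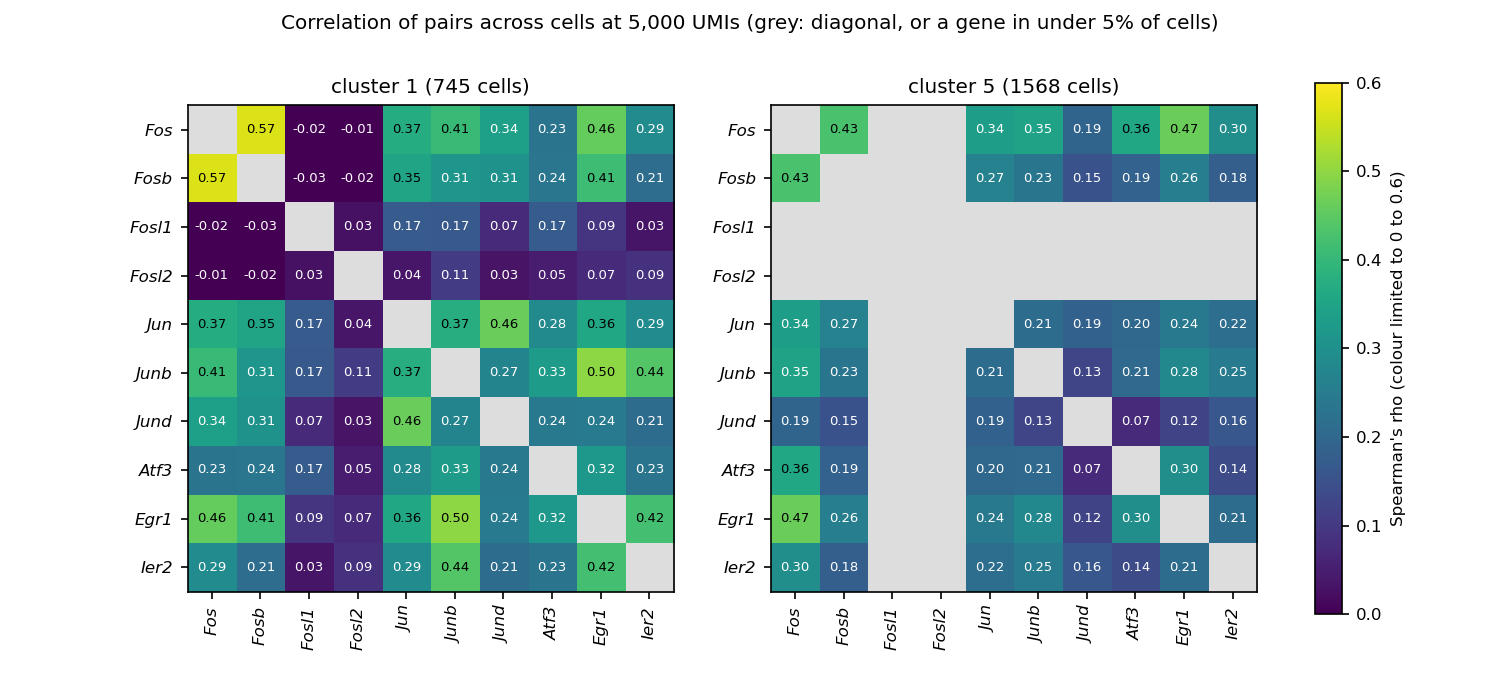
Spearman's rho of each pair of the 10 genes across cells of cluster 1 (left) and cluster 5 (right) at 5,000 UMIs per cell. Grey fields are the diagonal and genes seen in fewer than 5% of cells. The rows of *Fosl1* and *Fosl2* in cluster 1 are dark, and the field of *Fos* with *Fosb* is the brightest (0.57).

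Lists of related genes were read beside the 10. Their counts of calls are to be read against the shares of all genes called in the same cluster, given above with the calls of the 10 genes. Of the other immediate early genes, 15 of 19 tested were higher in cluster 1 and 0 lower, with a median log2 ratio of 2.43 (all genes 0.08). The largest were *Gadd45b*, a stress and cytokine response gene, at 5.15, *Ier3*, an inhibitor of cell death, at 4.39, *Socs3*, a feedback inhibitor of cytokine receptors, at 3.19, and the factor gene *Klf4* at 2.96. The 4 genes tested without a call were *Klf2* at 0.92, *Ccn2* at 0.90, *Myc* at 0.59 and *Srf* at 0.10. In cluster 2, 9 of 19 were lower and 0 higher, led by *Zfp36*, which encodes an mRNA decay protein, at -3.29. In cluster 5, 4 of 18 were higher and 4 lower, with *Zfp36* at 2.78 and *Ccn2*, *Maff* and *Ccn1* at -3.86, -2.21 and -2.03 as the largest.

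The heat-shock genes, which respond to misfolded protein, were mixed in cluster 1, with 4 of 13 higher and 3 lower, where 18.6% and 11.4% of all genes were called, and a median log2 ratio of -0.49 (all genes 0.08). Higher were *Hspb1* at 4.53, *Hspa1a* at 2.61, *Hspa1b* at 2.55 and the co-chaperone gene *Bag3* at 1.74. Lower were *Hspd1* at -1.92 and *Hspe1* at -1.62, the chaperonins of mitochondria, and *Hsp90aa1* at -1.27. The summed level of the list was 80.3 in cluster 1, the lowest of the 7 clusters. Its largest parts were *Hsp90ab1* at 33.2 and *Hspa8* at 18.9, neither of which was called, so that the sum says little about the genes called higher. In cluster 5, *Hspa1a* at 2.44 and *Hspa1b* at 2.09 were higher and *Hspb1* at -2.50 was lower, 2 and 1 of 13 genes tested. *Hspa1a* and *Hspa1b*, near-identical genes whose reads can be hard to separate, were thus higher in clusters 1 and 5, and *Hspa1a* was lower in the 5 other clusters.

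Of the feedback and target genes of ERK signalling, 4 of 12 were higher in cluster 1 and 1 was lower, where 18.6% and 11.4% of all genes were called, with a median of 0.62 (all genes 0.08). Higher were the Sprouty genes *Spry4* at 1.96 and *Spry2* at 1.62, the phosphatase gene *Dusp5* at 1.87 and *Spred2* at 1.07, and lower was *Etv5* at -1.12. In cluster 5, 6 of 11 tested were lower and 0 higher, where 16.7% and 8.2% of all genes were called. The median was -1.802, and those called lower included *Etv4* at -3.12, *Spry4* at -3.11, *Dusp4* at -2.83 and *Phlda1* at -2.07. *Fos* and *Egr1* were thus higher in cluster 5 where 6 genes of this list were lower. Across the cells of cluster 5 the sum of the 10 genes gave Spearman's rho of 0.19 with the sum of this list (0.18 to 0.24 within libraries). In cluster 3 the ETS factor genes *Etv5* at 3.39 and *Etv4* at 2.85 and the phosphatase gene *Dusp4* at 2.26 led the 4 higher calls of 12 genes tested, and *Ccnd1* (cyclin D1) at -2.52 led the 2 lower calls, while 6 of the 10 AP-1 genes were lower.

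All 11 target genes of NF-kB were higher in cluster 1, where 18.6% of all genes were called higher, with a median of 2.98. The chemokine genes *Cxcl1* at 7.66 and *Ccl2* at 5.59, the inhibitor gene *Nfkbia* at 3.75 and the ubiquitin-editing enzyme gene *Tnfaip3* at 3.44 were the largest. The summed level of this list in cluster 1 was 27.1 to 44.1 over the libraries and at most 3.85 in any library of another cluster. In cluster 5, *Nfkbiz* at 1.22 was higher, and *Cxcl1* at -3.62, *Nfkbia* at -1.18 and *Relb* at -1.15 were lower, of 7 tested. In clusters 0, 2, 3, 4 and 6, 0 genes of this list were higher. In that order, 1 of 9, 3 of 8, 5 of 7, 1 of 7 and 7 of 8 tested were lower. The shares of all genes called lower were 6.05%, 11.1%, 24.2%, 7.85% and 17.6%.

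In the clusters low in the 10 genes, the lists did not all follow. In cluster 0, 7 of 13 heat-shock genes and 4 of 10 ERK genes were lower and 0 of either were higher, and of the other immediate early genes *Btg2* at 1.10 was higher and *Zfp36* at -2.06 and *Myc* at -1.64 were lower, of 18 tested. Of all genes, 6.05% were called lower there and 8.97% higher. The median of the other immediate early genes was 0.17 in cluster 0, and their summed level of 12.9 came next after the 46.9 of cluster 1. In cluster 2, 2 of 11 ERK genes were higher and 1 lower, with a median of 0.56, where 6.1% and 11.1% of all genes were called. In cluster 3 the heat-shock genes had the highest summed level, 173, with 2 of 12 higher and 1 lower. Of all genes, 10.3% were called higher there and 24.2% lower. The largest parts of this sum were *Hsp90ab1*, *Hsp90aa1* and *Hspa8*, at levels of 55.3, 38.4 and 35.8. The gene called lower was *Hspa1a*, at a log2 ratio of -2.45. Also in cluster 3, 11 of 18 other immediate early genes were lower, with *Csrnp1* at 1.68 higher. In cluster 6, 9 of 17 were lower, with *Srf* at 1.02 higher, where 17.6% and 7.99% of all genes were called. In cluster 4 the matricellular genes *Ccn1* at 2.11 and *Ccn2* at 2.0 were higher and 4 of 18 were lower, where 13% and 7.85% of all genes were called.

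Partner genes of the same protein class were read as well. In cluster 1, 6 of 9 other bZIP genes were higher, the largest being *Atf5* at 2.07, *Mafk* at 1.96, *Jdp2*, a repressor of AP-1, at 1.84 and *Atf4*, the factor of the integrated stress response, at 1.60, and *Maf* at -1.60 was lower. In cluster 5 *Maf* at 4.2 and *Batf*, which pairs with Jun proteins in immune cells, at 3.55 were higher, as was *Jdp2* at 1.001, of 11 tested. Of the kinases and factors upstream, *Elk4* at 1.19 and *Mapk3* (ERK1) at 1.04 were higher in cluster 1, 2 of 9 tested with 0 lower, a share near the 18.6% of all genes called higher there, and in cluster 5 *Elk3* at -2.03 was lower and 0 were higher. Of the genes known as AP-1 targets, 6 of 9 were higher in cluster 1, among them the collagenase gene *Mmp13* at 7.28, the urokinase receptor gene *Plaur* at 4.40 and *Spp1* at 4.12, and *Hmga1* at -1.34 was lower. In cluster 5 *Cd44* at 2.81 was higher and 4 of 8 were lower.

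The cells of cluster 1 that were high in the 10 genes were also high in other early genes. Across 745 cells the sum of the 10 genes gave rho of 0.67 with the sum of the other immediate early genes (0.61 to 0.72 within libraries), 0.39 with the NF-kB targets (0.36 to 0.45), 0.24 with the ERK list (0.17 to 0.33) and 0.17 with the heat-shock list (0.01 to 0.34). The genes with the highest rho in cluster 1, of 8320 compared, were *Dusp1*, a phosphatase of MAP kinases, at 0.49, the antiproliferative gene *Btg2* at 0.48, *Zfp36* at 0.47, *Ier5* at 0.42 and *Nfkbia* at 0.37. With the sum of the AP-1 targets rho was 0.21 (0.16 to 0.25 within libraries), and the median over 8 single genes of that list was 0.01. The 99th percentile of all genes (0.21) was reached by 14 of 19 other immediate early genes, 4 of 11 NF-kB targets, 1 of 10 ERK genes and 1 of 8 AP-1 targets. It was also reached by 3 of 13 heat-shock genes. These 3 were *Hspa1a* at 0.33, *Hspb1* at 0.29 and *Hspa1b* at 0.27. The heart capillary markers gave -0.01 and the mitochondrially encoded genes -0.21 (-0.25 to -0.09 within libraries).

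In clusters 0 and 2 the highest rho was weak. In cluster 0 it was 0.25 for *Klf2*, the flow-responsive factor of endothelium, followed by 0.16 for *Klf4*, 0.16 for *Scoc*, 0.15 for *Dusp1* and 0.15 for *Btg2*, across 722 cells. In cluster 2 *Klf2* led again at 0.16, before *Klf4* at 0.14, *Apold1* at 0.12, *Dusp1* at 0.12 and *Ppp1r15a* at 0.12, across 5377 cells.

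Cluster 5 was divided by its own markers. Here the sum of the 10 genes gave rho of 0.68 with the other immediate early genes (0.63 to 0.72 within libraries), 0.52 with the macrophage markers (0.50 to 0.54), -0.12 with the granule genes (-0.23 to -0.04) and -0.26 with the heat-shock list (-0.31 to -0.22), across 1568 cells. Single heat-shock genes went both ways, from -0.30 for *Hspd1* to 0.26 for *Hspa1a*. The NF-kB targets gave 0.29 (0.23 to 0.34 within libraries). The 5 genes with the highest rho were *Tmsb4x* at 0.57, *Ckb* at 0.52, *Zfp36* at 0.51, *Tyrobp*, an adaptor of myeloid receptors, at 0.50, and the complement gene *C1qb* at 0.50. The 509 cells with UMIs of the complement genes *C1qa*, *C1qb* or *C1qc* and none of *Mpo*, *Elane*, *Prtn3* or *Ctsg* stood at a summed level of 28.0 (24.2 to 30.2 over the libraries), and the 498 cells with the reverse stood at 13.4 (12.9 to 14.0). The 248 cells with both kinds of UMI stood at 23.8 and the 313 with neither at 10.6. This split was made after the data had been seen. The levels were taken from all UMIs of the cells, so that cells without a marker UMI in the draw may hold some outside it.

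The difference inside cluster 5 was carried by part of the genes. *Fos* stood at 9.48 in the complement-positive and 3.14 in the granule-positive cells, *Atf3* at 1.39 and 0.0963, *Egr1* at 1.86 and 0.452, and *Fosb* at 1.72 and 0.765. *Jund* stood at 3.37 and 3.03 and *Ier2* at 2.602 and 1.93. In the complement-positive cells *Fos* lay at 7.81 to 10.3 over the libraries, above the 4.97 to 6.48 of cluster 1. *Junb*, at 1.90 in these cells, and *Fosl1*, at 0.00350, did not come near their levels in cluster 1.

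In cluster 4 the sum of the 10 genes gave rho of 0.47 with the other immediate early genes (0.43 to 0.51 within libraries), 0.31 with the fibroblast markers (0.30 to 0.32), 0.27 with the NF-kB targets (0.10 to 0.32) and -0.22 with the heat-shock list (-0.25 to -0.19), across 512 cells. The fibroblast markers were at a summed level of 20.0 to 21.5 over the libraries of cluster 4 and at 2.35 to 3.77 in cluster 1.

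The genes whose levels over the 21 combinations of cluster and library were most like the sum of the 10 were *Cstb*, an inhibitor of cathepsins (Pearson's r of log2 levels 0.97), *Socs3* (0.96), the glucocorticoid receptor gene *Nr3c1* (0.95), the lipase inhibitor gene *Angptl4* (0.95) and the long non-coding RNA *Neat1* (0.94), of 3053 genes compared. Combinations of the same cluster or library share cells or libraries. In cluster 1 these 5 genes stood at 4.65, 1.41, 1.12, 1.75 and 3.11, and *Angptl4* and *Neat1* came next in cluster 4 at 0.274 and 0.942.

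Signs of RNA quality and of other cells were read beside the result in cluster 1. Mitochondrially encoded genes took 2.58% of its UMIs (2.05 to 3.38% over the libraries) and 2.95 to 3.98% in the other clusters, and ribosomal protein genes took 13.9% and 17.3 to 28.1%. The macrophage markers had a summed level of 5.0 in cluster 1 (1.47 to 6.74), with 1 of 7 higher, 2 lower and 0 without UMIs, against 18.4 in cluster 5 and 0.106 to 0.301 in the other clusters. The erythroid markers had a summed level of 4.10 (0.173 to 12.1), with 0 of 2 tested called and 1 of the 4 markers without UMIs. The fibroblast markers had a summed level of 2.69, with 2 of 5 tested higher and 3 lower. The sum of the 10 genes gave rho of 0.02 with the macrophage markers and 0.003 with the erythroid markers within cluster 1. Of the proliferation genes all 4 were lower in cluster 1, with a summed level of 2.21 against 7.97 to 13.2 in the other clusters. The part of these values in the levels of the 10 genes was not tested.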

How the data were processed

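Single-cell RNA was captured with 10x Genomics 3′ v3 chemistry from pools A, B and C. The authors aligned reads to mm10 and counted UMIs with Cell Ranger 3.1.0, and Seurat 3.1.5 is also named in the submitters' processing notes. They deposited UMI counts per gene and cell, a natural log table of counts per 10,000 UMIs plus 1, and a Leiden cluster per cell. The natural log table the authors deposited differed from one recomputed here by at most 6.2e-15. The study's methods state that singlets with at least 5,000 UMIs were kept. In the deposited counts 90 cells had fewer, and no doublet caller was run here. Of 27998 genes, 27645 were named from GENCODE M21, and genes of equal name were summed (27994 names).

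Depth was 252339042 UMIs over 9562 cells. Levels were summed UMIs per 10,000 with exact Poisson 95% intervals, log2 ratios had exact conditional binomial intervals, and shares had exact Clopper–Pearson intervals, all for counting error only. The table has no map of cells to pools or times, so that it was treated as 1 sample, and no test and no p-value was computed. Genes with at least 0.1 UMIs per 10,000 in the cluster or the other cells were called at 2-fold with the same sign in the 3 libraries, with 0.5 UMIs added to both sums. Cells were thinned to 5,000 UMIs (seed 1). Correlations used genes found in at least 5% of cells, and likeness over 21 combinations used log2 levels plus 0.1 of genes at 1 or more. Scripts were tested on simulated data. Python 3.11.15, numpy 2.4.6, scipy 1.17.1, pandas 2.3.3 and matplotlib 3.10.9 were used.

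Named were the 10 genes, for each list the called genes (the 4 largest where more were called), the 5 genes most like the sum, and the 5 with the highest rho in clusters 0, 1, 2 and 5. Called genes named beyond the 4 largest of a list, and genes named without a call, were chosen after their values were seen. The 10 genes and the lists were chosen with earlier results of these data known. *Cebpd*, of the other immediate early genes, was not analysed here. A further called gene of the AP-1 targets is not reported here. Promoter windows came from RefSeq (GRCm38.p6). Alternatives were other weightings, denominators, thresholds and minimum levels, thinning, and leaving out each library.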

Additional observations from a re-analysis of the deposited data

How the results depend on the processing

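A total of 280 results were recomputed, and no log2 ratio of a called gene changed sign. Changes of sign were not counted for ratios without a call. The order of the clusters by the summed level of the 10 genes (1, 5, 4, 6, 0, 2, 3) held under each alternative run over all clusters, and cluster 1 stood 2.10 to 2.597 times above the next (2.34 as reported). With mitochondrially encoded and globin genes left out of the total, the summed level was 11.3 in cluster 0 and 8.64 in cluster 2. In cluster 4 it was 17.7 as a mean over cells, 17.7 from the deposited normalized table and 17.5 at 5,000 UMIs per cell. Chosen after seeing the data, the division of cluster 5 gave 28.0 (complement genes alone), 13.4 (granule genes alone), 23.8 (both) and 10.6 (neither), and the shallowest and deepest groups of cluster 1 gave 62.4 and 34.0. Leaving out the 26 cells with a shared barcode brought no called log2 ratio of the 10 genes under 2-fold and no smaller ratio up to it. The sign in each library was not recomputed without these cells.

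Leaving out 1 library at a time gave summed levels of 39.5 to 47.7 in cluster 1 and 18.3 to 19.3 in cluster 5, and for clusters 0, 2, 3, 4 and 6 of 10.7 to 11.04, 8.32 to 8.397, 6.03 to 6.79, 16.1 to 16.7 and 11.3 to 12.6. It gave 0 to 1 genes called higher in cluster 4 (0 without library 2), 2 to 3 lower in cluster 0 and 4 to 6 lower in cluster 2. At 1.5-fold, 1 of the 10 genes was called higher in cluster 0, 4 higher and 1 lower in cluster 4, and 2 higher and 2 lower in cluster 6. At 3-fold, 3 were called lower in cluster 2, and 0 higher in clusters 4 and 6. The calls in clusters 1 and 5 stayed within 1.5 times their number at either threshold.

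*Jun* reached the 2-fold threshold in cluster 2 as a mean over cells (-1.04) and at 5,000 UMIs (-1.02). *Junb* missed it there as the median over libraries (-0.97), as did *Atf3* in cluster 0 at 5,000 UMIs (-0.87) and as that median (-0.99). With a minimum level of 1, 137 to 495 genes per cluster were called higher and 75 to 382 lower, and with none 1101 to 3602 and 2033 to 5655, against 544 to 1741 and 541 to 2196 as reported. At full depth the median rho of the pairs was 0.15, 0.26, 0.42 and 0.23 in clusters 2, 4, 5 and 6, and with another seed it was 0.04 in cluster 3. The cause of these shifts was not tested. Clusters were compared within each library by the sign of the log2 ratio alone, with no paired test.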
